A study of Homo sapiens with 2 samples.

Results

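The mitochondrial protein import machinery was followed as 35 protein-coding genes among the 58735 genes of the deposited table. They were chosen by name alone, as every TOMM and TIMM gene together with PAM16, GRPEL1, GRPEL2, SAMM50, MTX1, MTX2, MTX3, CHCHD4, PMPCA and PMPCB, so the naming rule itself uses no measured value, although the set was picked with earlier results of these data known. The samples were 1 library of human SH-SY5Y neuroblastoma cells that had received TDCPP, a chlorinated organophosphate flame retardant, together with TiO2 nanoparticles (TiO2 NPs) for 24 h, and 1 control library of the same line, labelled Ctrl. Neither library is described as carrying a genetic change, the labels give no dose, and there is no library of either agent alone. The title of the series is about apoptosis and mitochondrial dynamics, and the comparison made here is of genes that supply mitochondria with their proteins.

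Nearly all mitochondrial proteins are made in the cytosol and must be imported. Precursors enter through the TOM complex of the outer membrane and are then passed to the SAM complex for outer membrane barrels, to the small TIM chaperones and the TIM22 complex for carrier proteins, or to the TIM23 complex and its ATP-driven motor for proteins with a cleavable presequence, which a matrix peptidase removes. A separate disulfide relay, built around CHCHD4, traps small cysteine-rich proteins in the intermembrane space.

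The reads behind the deposited FPKM (fragments per kilobase of a gene, scaled by a total for each library) could be recovered from the table. They summed to 15315572 in the exposed and 16471438 in the control library. Of 14 genes listed as markers of noradrenergic neuroblastoma cells, 4 reached a mean FPKM of 1, namely GATA2, GATA3, ISL1 and HAND2. Their summed levels were 13.9 FPKM in the exposed and 20.8 FPKM in the control library. PHOX2A, TH, STMN2 and ELAVL4 had 0 reads in both. All 4 that reached the level had log2 ratios below 0, as did 58.1% of all protein-coding genes at that level. GATA2 was at least 1.5-fold lower, beside 2.16% of those genes, with a read ratio of 0.600. Of 9 mesenchymal markers 5 reached that level, with summed levels of 55.2 FPKM in the exposed and 71.0 FPKM in the control library, mostly from VIM, and DCN had 0 reads. All 5 had log2 ratios below 0, as did 58.1% of all protein-coding genes at that level. At least 1.5-fold lower were 3 of the 5, beside 2.16% of those genes. Their read ratios were 0.320 for LUM, 0.378 for COL3A1 and 0.602 for COL1A1. The part of these markers in the differences below was not tested. With 1 library per group no difference has a replicate check and no p-value is given. The 95% intervals are exact intervals of the read ratio that cover counting error only, treat reads as independent and compare these libraries, not the conditions.

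As a set the import genes differed between exposed and control cells about as much as other genes did, with an interquartile range of log2 ratios of 0.35 for the import genes and 0.33 for all measured genes. Of the 35 genes, 34 had a mean FPKM of at least 1 and are called measured, and none of these was 1.5-fold higher or 1.5-fold lower in exposed cells. Fold counts use the log2 ratio, log2((exposed FPKM + 1)/(control FPKM + 1)), in which the added 1 damps the difference of genes with low values. Across all 11409 measured protein-coding genes, 2.53% reached 1.5-fold in the upward and 2.16% in the downward direction, and 0.657% and 0.131% reached 2-fold, so a count of 0 among 34 genes is close to the background. At a smaller step, used after the values were known, 3 import genes (8.82%) were at least 25% higher on the same scale, beside 8.98% of all measured genes, and 7 (20.6%) were at least 20% lower, beside 13.5% of all measured genes. The 3 were TIMM9, TOMM20L and TIMM10B, and the 7 were GRPEL1, PMPCA, TIMM17A, TOMM5, TOMM40L, TIMM23 and TOMM22.

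The median log2 ratio of the measured import genes was -0.09, beside -0.05 for all measured genes, and 21 of the 34 lay below 0, as did 58.1% of all measured genes. When FPKM were brought to equal sums instead, which shifted the median of all genes by 0.12, that of the import genes was 0.02. The interval of the read ratio lay below 1 for 14 import genes and above 1 for 4, beside 36% and 21.5% of all measured genes. With equal sums these counts were 12 and 12, so the split of intervals around 1 depends on how the libraries are scaled. The intervals of CHCHD4, GRPEL2, MTX2, MTX3, PAM16, TIMM17B, TIMM21 and TOMM34 then moved above 1, and those of TIMM13 and TIMM22 then included it. No share of all measured genes was counted with equal sums. With FPKM as deposited the log2 ratios ran from -0.51 for GRPEL1 to 0.42 for TIMM9, and the middle 95% of all measured genes ran from -0.56 to 0.59. FPKM are scaled for each library, so neither cell number nor an RNA content common to all genes shows in them. In libraries made from whole cultures, a shift in the mix of cells and a change within cells cannot be told apart.

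**Figure D1:**
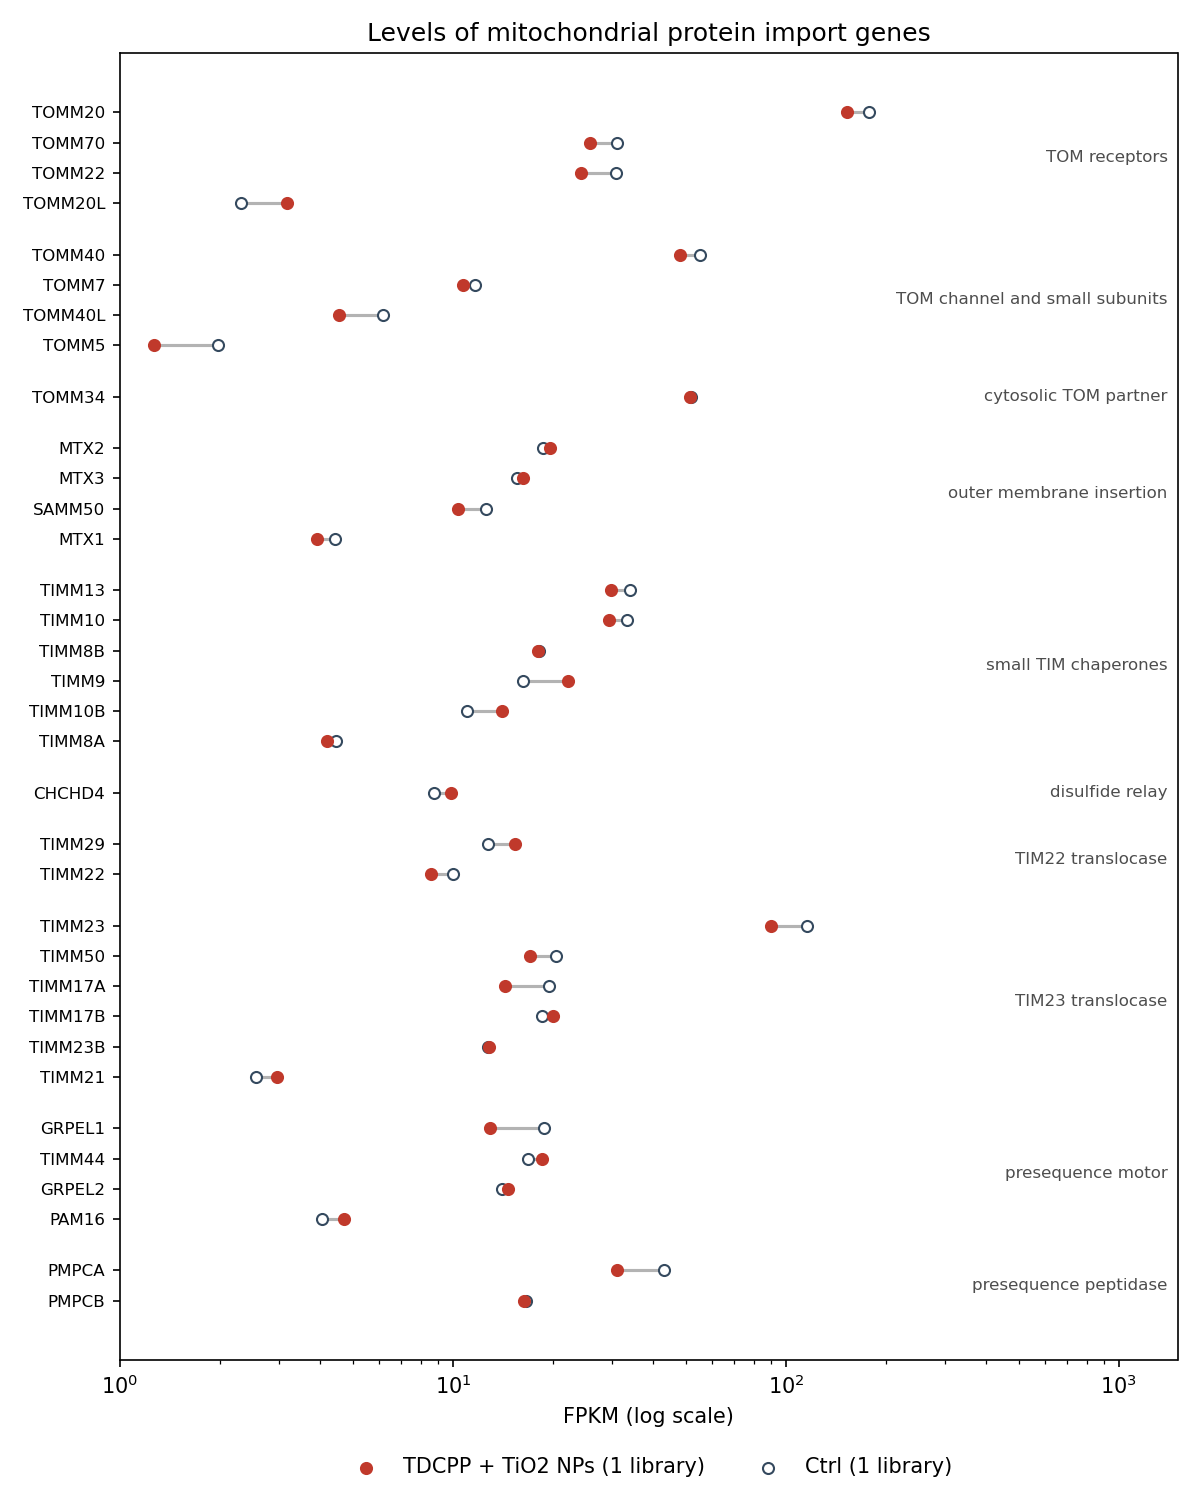
FPKM of the 34 measured import genes (log axis) in the exposed library (filled points) and the control library (open points), grouped by their place in the import route, with 1 library per group and no error bars. TOMM20 and TIMM23 stand highest in both libraries, the gap between the points is small for most genes, and GRPEL1, PMPCA, TIMM17A and TIMM9 are among those with a visible gap.

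Promoter sequence was examined as a feature that the choice of genes did not use. RefSeq start sites (GRCh38.p14) matched 32 of the 35 genes by symbol, all except GRPEL1, TIMM8B and TOMM5. In the window from 250 bases before to 50 bases after the start, the letters ACTTCCGG, a motif bound by ETS family transcription factors, or their reverse complement CCGGAAGT stood in 9 of the 32 (28.1%). The same letters stood in 9.44% of the windows of 9159 measured genes and in 4.44% of all 27305 windows. No test was made of this difference, and matching letters are not evidence of binding. The sites are shown because, of the 4 motifs searched, this one stood in the most import promoters, although 23 of the 32 lack it. They are given 5′ to 3′ on the strand of the gene, with the motif in capitals and 10 bases on either side.
TOMM20 (chr1:235128842-235128869, - strand): ttgactgggaCCGGAAGTggcgtgtgct
TOMM70 (chr3:100401176-100401203, - strand): ttcccttaacCCGGAAGTgatttccgcc
TOMM6 (chr6:41787604-41787631, + strand): ccggtagcagCCGGAAGTgccagaccgg
MTX2 (chr2:176269426-176269453, + strand): gtcggctgcgCCGGAAGTccctagccag
MTX3 (chr5:79991254-79991281, - strand): gaggaaaagtACTTCCGGgatagtaaag
TIMM10 (chr11:57530750-57530777, - strand): gactttcctcCCGGAAGTaacccacgtg
TIMM10B (chr11:6481445-6481472, + strand): gcgagaggttACTTCCGGggcggcaccg
TIMM29 (chr19:10928711-10928738, + strand): ttgggaagccACTTCCGGtaaagttggc
GRPEL2, farther site (chr5:149345342-149345369, + strand): acactgagagCCGGAAGTgttgccttag
GRPEL2, nearer site (chr5:149345423-149345450, + strand): gcgttcctgtCCGGAAGTcctgagaggg

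The measured import genes with the ETS letters (n = 8) had a median log2 ratio of 0.06 and ran from -0.26 to 0.33, and those without (n = 23) had a median of -0.11 and ran from -0.46 to 0.42, so the ranges overlap. Over all measured genes, those with the letters had a median of -0.05, as did those without. The palindromic consensus site of the nuclear respiratory factor NRF1, spelled by the capitals of the CHCHD4 site below, stood in 1 import promoter, that of CHCHD4, and in 2.38% of the windows of measured genes. TGACGTCA, the cyclic AMP response element, stood in none of the 32 and in 3.43% of measured genes. TGATGNAAT, the composite element read by C/EBP and ATF factors such as ATF4, stood on the reverse strand at the far edge of the PMPCB window and in 0.415% of measured genes. Both strands were searched for all 4 motifs. The CHCHD4 and PMPCB sites are shown in the same way, the second cut at the edge of the window.
CHCHD4 (chr3:14125003-14125032, - strand): cagtgtttctGCGCATGCGCgcggcgagac
PMPCB (chr7:103297185-103297203, + strand): ATTGCATCAggttaccttt

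The TOM receptors were modestly lower in exposed cells. TOMM20 (ENSG00000173726, chromosome 1, 235109336 to 235128936 on GRCh38), which binds presequences, was the most abundant import gene, at 153 FPKM in the exposed and 177 FPKM in the control library. Its read ratio, exposed over control and without a pseudocount, was 0.862 (0.838 to 0.887). TOMM22, the central receptor that holds the complex together, stood at 24.3 FPKM in exposed and 31.0 FPKM in control cells, a ratio of 0.786 (0.717 to 0.860). TOMM70, which receives carrier precursors and docks the cytosolic chaperones HSP70 and HSP90, stood at 25.8 FPKM in exposed and 31.0 FPKM in control cells, a ratio of 0.830 (0.784 to 0.879). All 3 intervals lie below 1, and 25.2% of measured genes had a lower log2 ratio than TOMM20, 12.4% than TOMM22 and 19.9% than TOMM70. TOMM20L, a paralog of TOMM20, had only 31 reads in the exposed and 23 in the control library, 3.17 and 2.32 FPKM. Its ratio of 1.37 has an interval (0.772 to 2.46) that spans 1, and TOMM20L shares 173 exon bases, 27.9% of its length, with TIMM9 on the opposite strand.

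The TOM channel followed the receptors. TOMM40, the barrel through which precursors cross the outer membrane, stood at 48.0 FPKM in the exposed and 55.4 FPKM in the control library, a ratio of 0.866 (0.823 to 0.912). Its less abundant paralog TOMM40L stood at 4.55 FPKM in exposed and 6.18 FPKM in control cells, a ratio of 0.737 (0.620 to 0.874), from 236 and 325 reads. TOMM40L shares 661 exon bases, 20.1% of its length, with NR1I3 on the opposite strand, which had 11 reads in exposed and 13 in control cells. Of the small subunits that stabilise the complex, TOMM7 had 10.7 FPKM in exposed and 11.6 FPKM in control cells, and its ratio of 0.921 (0.784 to 1.08) was not separable from 1 by counting. TOMM5 had 73 reads in the exposed and 115 in the control library, 1.27 and 1.97 FPKM, a ratio of 0.644 (0.474 to 0.871), which passes 1.5-fold only without the added 1. On the same strand TOMM5 shares 520 exon bases, 14.3% of its length, with AL138752.2, which had 0 reads in exposed and 3 in control cells. It also shares 340 exon bases, 9.33%, with AL513165.2, which had 0 reads in both. TOMM6 had 0 reads in both libraries, which allows up to 3 reads per library, or 0.196 RPM (a share of the library's reads) in the exposed and 0.182 RPM in the control library. All 637 of its exon bases also belong to the overlapping gene AL365205.1 on the same strand, which had 18 reads in exposed and 19 in control cells, so the value of TOMM6 cannot be read as its level. TOMM34, a cytosolic cochaperone that binds HSP70 and HSP90, stood at 51.7 FPKM in exposed and 51.9 FPKM in control cells, a ratio of 0.997 (0.931 to 1.07).

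The outer membrane insertion genes diverged slightly. SAMM50, the core of the SAM complex, stood at 10.4 FPKM in the exposed and 12.6 FPKM in the control library, a ratio of 0.824 (0.759 to 0.895). Of the metaxins that accompany it, MTX2 had 19.6 FPKM in exposed and 18.7 FPKM in control cells, a ratio of 1.05 (0.926 to 1.19). MTX3 had 16.3 FPKM in exposed and 15.6 FPKM in control cells, a ratio of 1.05 (0.982 to 1.11). MTX1 had 3.91 FPKM in exposed and 4.42 FPKM in control cells, a ratio of 0.883 (0.728 to 1.07). All 3 metaxin intervals include 1 with FPKM as deposited. With FPKM brought to equal sums 2 of them lay above 1, MTX2 at 1.14 (1.01 to 1.29) and MTX3 at 1.14 (1.07 to 1.21). That of MTX1 was then 0.962 (0.793 to 1.17). MTX1 shares 15.5% of its distinct 50-base stretches with its pseudogene MTX1P1. With the reads of that copy added the ratio was 0.914 (0.766 to 1.09).

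The small TIM chaperones, which shield hydrophobic precursors in the intermembrane space, went in different directions. TIMM9 (ENSG00000100575, chromosome 14, 58408494 to 58427614) had the highest log2 ratio of all import genes, with 524 reads in the exposed and 391 in the control library, 22.2 and 16.3 FPKM. Its read ratio was 1.36 (1.19 to 1.55), and 94.6% of measured genes had a lower log2 ratio. TIMM10, which assembles with TIMM9 into a ring-shaped chaperone, stood at 29.4 FPKM in exposed and 33.3 FPKM in control cells, a ratio of 0.882 (0.764 to 1.02). The level of TIMM9 was thus 0.754 of that of TIMM10 in exposed cells and 0.489 in control cells, and the ratio of TIMM9 over that of TIMM10 was 1.54 (1.27 to 1.88). TIMM10B, which joins the chaperones to the TIM22 complex, stood at 14.0 FPKM in exposed and 11.0 FPKM in control cells, a ratio of 1.28 (1.14 to 1.43).

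TIMM13 was the small TIM chaperone with an interval below 1, at 29.8 FPKM in exposed and 34.0 FPKM in control cells, a ratio of 0.875 (0.800 to 0.956), or 0.953 (0.872 to 1.04) with FPKM brought to equal sums. TIMM13 shares 257 exon bases, 13.0% of its length, with LMNB2 on the same strand, which had 5550 reads in exposed and 7295 in control cells, and 15.9% with TMPRSS9 on the opposite strand. The partner of TIMM13, TIMM8A, the gene mutated in deafness-dystonia syndrome, had 4.19 FPKM in exposed and 4.45 FPKM in control cells, a ratio of 0.942 (0.785 to 1.13). TIMM8B had 18.0 FPKM in exposed and 18.2 FPKM in control cells, a ratio of 0.990 (0.849 to 1.16). The summed level of all 6 was 118 FPKM in the exposed and 117 FPKM in the control library. TIMM8B shares 351 exon bases, 30.1% of its length, with NKAPD1 on the opposite strand. TIMM9 shares 223 exon bases with KIAA0586 as well as those with TOMM20L, and the deposited values are not stated to be strand-specific, and so the reads of these overlaps cannot be assigned.

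CHCHD4, the oxidoreductase of the disulfide relay, stood at 9.88 FPKM in the exposed and 8.78 FPKM in the control library, a ratio of 1.12 (0.944 to 1.34). In the TIM22 complex, which inserts carriers into the inner membrane, the channel gene TIMM22 had 8.62 FPKM in exposed and 10.04 FPKM in control cells, a ratio of 0.858 (0.753 to 0.977). TIMM29, a subunit of this complex in animals, had 15.4 FPKM in exposed and 12.8 FPKM in control cells, a ratio of 1.20 (1.05 to 1.38). With FPKM as deposited the intervals of TIMM22 and TIMM29 lie on opposite sides of 1. With FPKM brought to equal sums that of TIMM22 included 1, at 0.935 (0.821 to 1.06), and that of TIMM29 still lay above 1. The summed deposited level of both genes was 24.0 FPKM in exposed and 22.8 FPKM in control cells.

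In the TIM23 complex 3 of the 6 genes had a log2 ratio below 0, and those were TIMM23, TIMM17A and TIMM50. TIMM23 (ENSG00000265354, chromosome 10, 45972449 to 46003734), the channel, was the second most abundant import gene, with 90.6 FPKM in the exposed and 116 FPKM in the control library, a ratio of 0.782 (0.734 to 0.833). Its paralog TIMM23B had 12.9 FPKM in exposed and 12.8 FPKM in control cells, a ratio of 1.01 (0.901 to 1.13). TIMM23 shares 17.0% of its 50-base stretches with TIMM23B, so the separate values are uncertain. With the reads of both added, the ratio was 0.831 (0.787 to 0.878), so that TIMM23 no longer counts among the genes at least 20% lower. TIMM50, the receptor that guides presequences to the channel, had 17.0 FPKM in exposed and 20.4 FPKM in control cells, a ratio of 0.836 (0.785 to 0.889).

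TIMM17A and TIMM17B encode alternative forms of another channel subunit and differed in direction. TIMM17A (ENSG00000134375, chromosome 1, 201955491 to 201970661) had 797 reads in the exposed and 1094 in the control library, 14.4 and 19.5 FPKM, a ratio of 0.739 (0.674 to 0.810). TIMM17B had 20.0 FPKM in exposed and 18.5 FPKM in control cells, a ratio of 1.08 (0.977 to 1.19). The level of TIMM17A was 0.720 of that of TIMM17B in exposed cells and 1.05 in control cells. TIMM21, which links the complex to the TOM complex and to respiratory chain assembly, had 2.96 FPKM in exposed and 2.57 FPKM in control cells, a ratio of 1.15 (0.955 to 1.39).

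**Figure D2:**
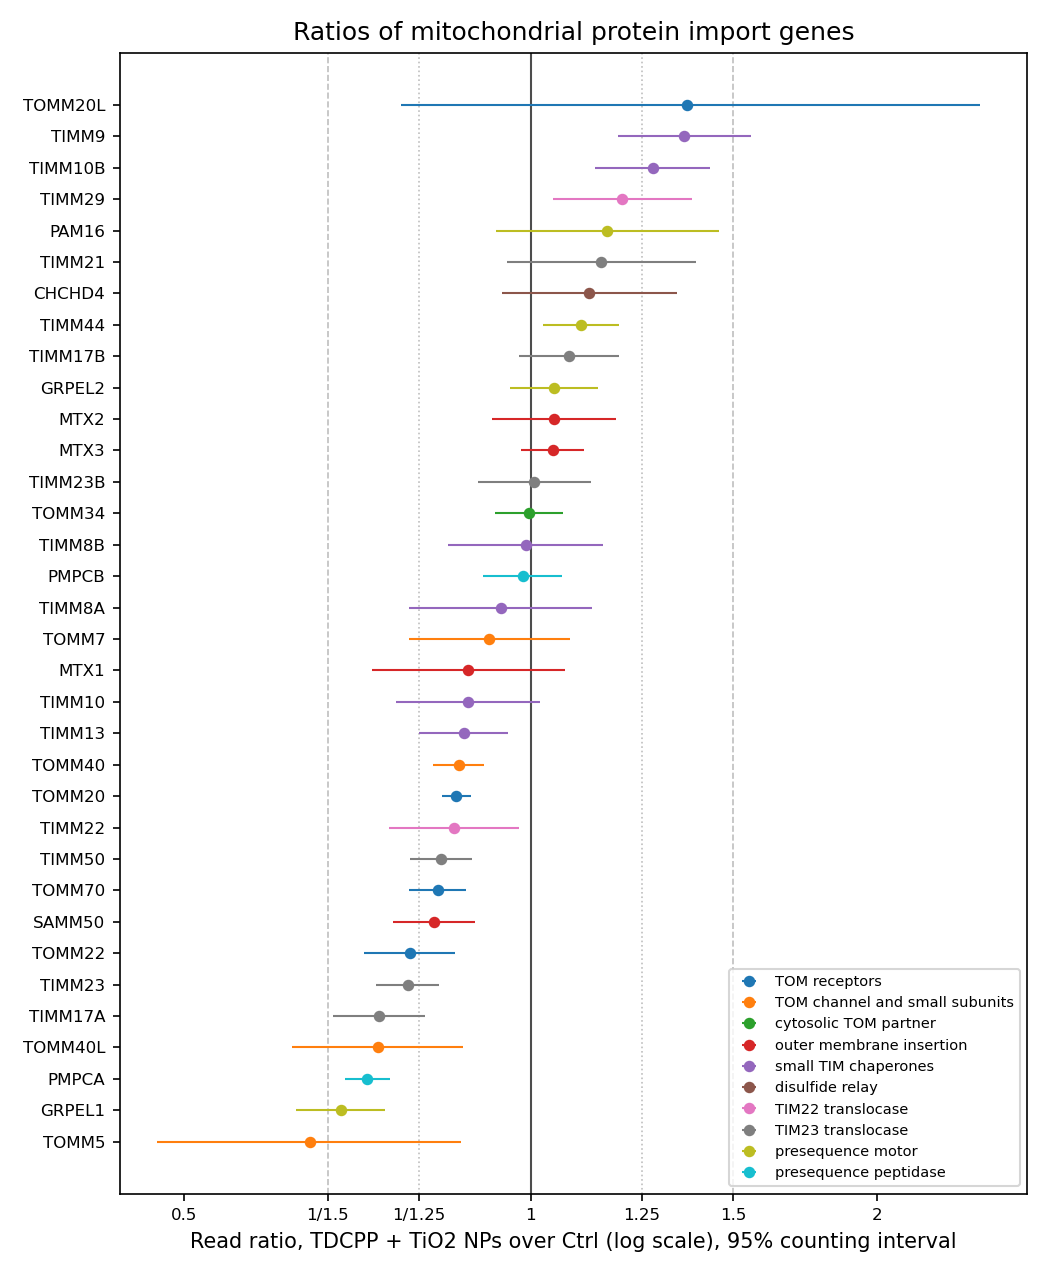
Read ratio of each measured import gene, exposed over control (log axis), with its 95% counting interval, coloured by place in the import route and ordered by size. Dotted lines mark 25% higher and 20% lower, and dashed lines 1.5-fold. TOMM5 and GRPEL1 stand lowest at 0.644 and 0.684, TOMM20L and TIMM9 highest at 1.37 and 1.36, and the wide intervals of TOMM20L and TOMM5 come from their few reads.

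The presequence motor held the lowest log2 ratio of all import genes beside members that were level or higher. GRPEL1 (ENSG00000109519, chromosome 4, 7058906 to 7068197), the nucleotide exchange factor of mitochondrial HSP70, had 849 reads in the exposed and 1259 in the control library, 12.9 and 18.8 FPKM. Its read ratio was 0.684 (0.626 to 0.747), its log2 ratio was -0.51, and 3.56% of measured genes had a lower log2 ratio. Its paralog GRPEL2 had 14.7 FPKM in exposed and 14.0 FPKM in control cells, a ratio of 1.05 (0.960 to 1.15). TIMM44, which tethers the motor to the channel, had 18.6 FPKM in exposed and 16.8 FPKM in control cells, a ratio of 1.11 (1.03 to 1.19). PAM16, a regulator of the motor, had 4.71 FPKM in exposed and 4.04 FPKM in control cells, a ratio of 1.17 (0.934 to 1.46), and its exons overlap those of the read-through gene CORO7-PAM16, which had 0 reads in both libraries.

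The presequence peptidase is a dimer of the products of PMPCA and PMPCB, and PMPCB encodes the catalytic subunit. PMPCA (ENSG00000165688, chromosome 9, 136410570 to 136423761) had 3232 reads in the exposed and 4542 in the control library, 31.1 and 43.1 FPKM, a ratio of 0.722 (0.690 to 0.755). PMPCB had 16.3 FPKM in exposed and 16.6 FPKM in control cells, a ratio of 0.984 (0.910 to 1.07). PMPCB shares 628 exon bases, 13.0% of its length, with DNAJC2 on the opposite strand, which had 830 reads in exposed and 1014 in control cells. The level of PMPCA was 1.90 times that of PMPCB in exposed cells and 2.60 times in control cells.

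Setting the ratios of paralogs and of partner subunits against each other removes any scaling between the libraries. The 12 pairs were chosen with the values known and are given as a description, and the interval of single genes alone lay off 1 for 36% (below) and 21.5% (above) of all measured genes. The ratio of GRPEL1 over that of GRPEL2 was 0.653 (0.576 to 0.740). That of TIMM17A over TIMM17B was 0.684 (0.597 to 0.785), that of PMPCA over PMPCB 0.733 (0.669 to 0.803) and that of TIMM23 over TIMM23B 0.776 (0.682 to 0.883), besides TIMM9 over TIMM10 given above. These intervals do not cover the sequence shared by TIMM23 and TIMM23B or the exon overlaps of TIMM9 and PMPCB given above. The pairs TOMM40 and TOMM40L at 1.18 (0.984 to 1.41), TOMM20 and TOMM20L at 0.631 (0.351 to 1.12), TIMM8A and TIMM8B at 0.951 (0.748 to 1.21), TIMM8A and TIMM13 at 1.08 (0.879 to 1.32) and MTX1 and MTX2 at 0.843 (0.669 to 1.06) had intervals that include 1. The remaining pairs reach outside the 35 genes, to HSPA9, the mitochondrial HSP70 that GRPEL1 serves, and to its J-domain cochaperones DNAJC15 and DNAJC19.

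**Figure D3:**
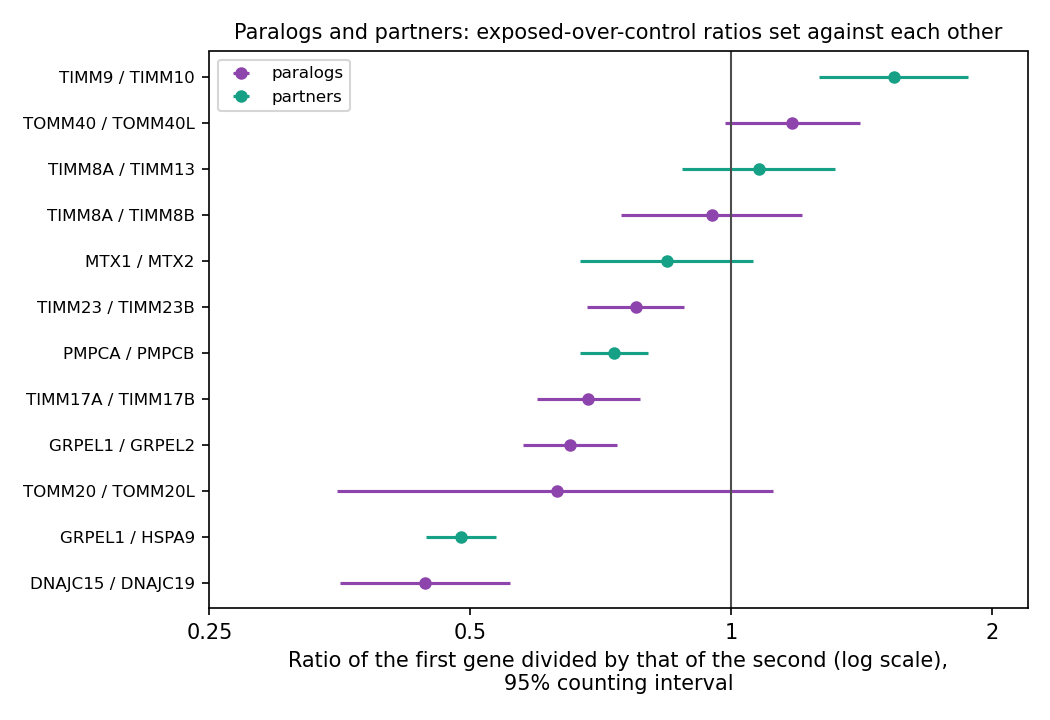
Exposed-over-control ratio of the first gene of a pair divided by that of the second (log axis), with its 95% counting interval, for paralogs and for subunits that work together. DNAJC15 over DNAJC19 at 0.444 and GRPEL1 over HSPA9 at 0.488 stand lowest, and TIMM9 over TIMM10 at 1.54 highest.

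Among 16 other genes of import, insertion and maturation, all measured, none was at least 1.5-fold higher and 1 was at least 1.5-fold lower. The shares of all measured genes were 2.53% higher and 2.16% lower, and the list was chosen with earlier results known. Their median log2 ratio was -0.12. HSPA9 stood at 92.9 FPKM in the exposed and 66.2 FPKM in the control library, a ratio of 1.40 (1.36 to 1.44). DNAJC15 was the gene past 1.5-fold, at 1.28 FPKM in exposed and 2.48 FPKM in control cells, a ratio of 0.515 (0.424 to 0.624), while DNAJC19, singled out after its value was seen, had a ratio of 1.16 (1.04 to 1.30). The ratio of GRPEL1 over that of HSPA9 was 0.488 (0.445 to 0.535), and the level of GRPEL1 was 0.139 of that of HSPA9 in exposed and 0.284 in control cells. The insertase gene MTCH2 had a ratio of 0.822 (0.773 to 0.874), the intermediate peptidase gene MIPEP 0.809 (0.707 to 0.924), the presequence-degrading PITRM1 0.834 (0.783 to 0.887) and AIFM1, which anchors CHCHD4, 0.834 (0.759 to 0.917).

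Of 12 genes that deliver precursors through the cytosol, none passed 1.5-fold in either direction, 6 (50%) were at least 20% lower, beside 13.5% of all measured genes, and their median log2 ratio was -0.34. HSPA8, the constitutive HSP70 that hands precursors to TOMM70, stood at 187 FPKM in the exposed and 280.4 FPKM in the control library, a ratio of 0.668 (0.654 to 0.682). HSP90AA1 had a ratio of 0.680 (0.669 to 0.692), HSP90AB1 0.708 (0.695 to 0.720), the J-domain genes DNAJA1 0.736 (0.704 to 0.770) and DNAJA2 0.772 (0.717 to 0.830), and STIP1, which couples HSP70 to HSP90, 0.741 (0.718 to 0.764). Of 10 genes that watch over import, 9 were measured, with a median log2 ratio of 0.02. At least 1.5-fold higher was 1 of them and none was 1.5-fold lower. The shares of all measured genes were 2.53% higher and 2.16% lower. The gene past 1.5-fold was ATF5, a transcription factor of the mitochondrial stress response, at 12.2 FPKM in exposed and 6.94 FPKM in control cells, a ratio of 1.75 (1.53 to 2.01). DELE1, which carries mitochondrial stress signals to the eIF2alpha kinase HRI, had a ratio of 1.26 (1.15 to 1.38), the deubiquitinase gene USP30 1.19 (1.05 to 1.36), EIF2AK1, which encodes HRI, 1.03 (0.985 to 1.08), the extractase gene ATAD1 0.963 (0.904 to 1.03) and the protease gene OMA1 0.940 (0.777 to 1.14).

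Of 16 genes whose products the CHCHD4 relay oxidises or that carry its twin-cysteine fold, the median log2 ratio was -0.12. None was at least 1.5-fold higher, beside 2.53% of all measured genes, and 1 was at least 1.5-fold lower, beside 2.16%. The complex I subunit gene NDUFS5 was that gene, at 101 FPKM in the exposed and 152 FPKM in the control library, a ratio of 0.663 (0.608 to 0.723). The cytochrome oxidase gene COX6B1 had a ratio of 0.739 (0.682 to 0.802), its assembly factor gene COA6 0.770 (0.652 to 0.908), NDUFA8 0.780 (0.716 to 0.851) and CHCHD7 0.780 (0.687 to 0.884). TRIAP1, also a p53 target, had a ratio of 1.29 (1.17 to 1.43).

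Other nuclear gene families of mitochondria were set beside the import genes as a description, without a test. The median log2 ratio was -0.18 for 77 measured mitochondrial ribosomal protein genes and -0.20 for 35 measured complex I (NDUF) genes, and 84.4% and 82.9% of them lay below 0, beside 61.8% of the import genes. The 37 measured SLC25 carrier genes, whose products the TIM22 complex inserts, had a median of -0.04 with 51.4% below 0. In each of these families 0 genes were at least 25% higher, beside 8.98% of all measured genes. At least 20% lower were 16 ribosomal protein genes (20.8%), 8 complex I genes (22.9%) and 3 carrier genes (8.11%), beside 13.5% of all measured genes and 20.6% of the import genes.

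**Figure D4:**
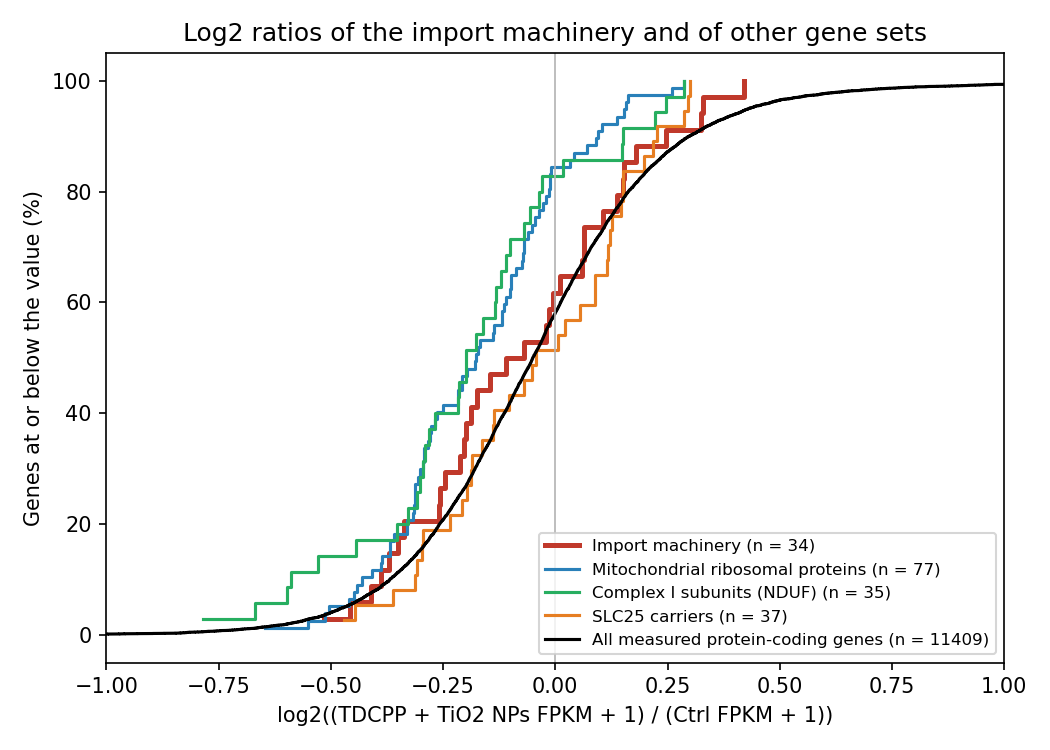
Cumulative share of genes at or below each log2 ratio of FPKM, with a pseudocount of 1, for the import machinery, mitochondrial ribosomal proteins, complex I genes, SLC25 carriers and all measured protein-coding genes. The import curve runs close to that of all measured genes (medians -0.09 and -0.05), while the ribosomal protein and complex I curves lie to its left (medians -0.18 and -0.20).

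Import genes lay on 18 chromosomes, with 5 on chromosome 19, and several start close to a gene on the other strand. TIMM29 starts 52 bases from YIPF2, which stood at 19.9 FPKM in the exposed and 12.0 FPKM in the control library, a log2 ratio of 0.68 beside 0.25 for TIMM29. PMPCA starts 39 bases from ENTR1, at 55.9 FPKM in exposed and 64.8 FPKM in control cells, a log2 ratio of -0.21 beside -0.46. TIMM10B starts 32 bases from ARFIP2, at 18.2 FPKM in exposed and 19.7 FPKM in control cells, and had a log2 ratio of -0.11 beside 0.33 for TIMM10B. CHCHD4 starts 70 bases from TMEM43, which had a log2 ratio of 0.09 beside 0.15. TIMM8B starts 25 bases from the succinate dehydrogenase gene SDHD, which had a log2 ratio of -0.22 beside -0.01. MTX1 starts 352 bases from THBS3, which had a log2 ratio of 0.48 beside -0.14, and TIMM9 starts 229 bases from KIAA0586, which had -0.25 beside 0.42. Of the 11 pairs of start sites within 1000 bases whose neighbour had reads, 6 had log2 ratios of the same sign and 5 of opposite sign. The pairs named here were singled out after their values were seen.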

How the data were processed

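RNA sequencing of 1 exposed and 1 control library of SH-SY5Y cells was used. Per the labels' protocols, total RNA (Qiagen RNeasy) went into SMARTer mRNA-Seq libraries. The authors deposited 1 FPKM value per gene and library. Which aligner and counter made it is not given in the sources used here, and the mouse builds GRCm38 and mm10 stand in the submitters' processing notes, but the symbol, start, end and merged exon length of all 58735 rows equal those of GENCODE release 29 (GRCh38), so coordinates are on GRCh38. In each library, FPKM times gene length gave whole reads, within 0.001 reads, for 100% of values above 0. The totals that scale the deposited FPKM equalled the read sums times 1.03 in the exposed and 0.971 in the control library. The deposited FPKM thus carry a scaling between the libraries beyond that by read sums, which equal sums and recovered read totals replace. FPKM were used as deposited except where another scaling is named.

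Measured genes are protein-coding and have a mean FPKM of at least 1. Log2 ratios have a pseudocount of 1. Read ratios have exact 95% intervals (Clopper-Pearson, conditional on the sum of reads) and pairs have conditional odds ratio intervals (scipy 1.17.1, Python 3.11.15). Groups came from the sample titles. Every measured member is named, with up to 6 genes of each other list by absolute log2 ratio. The members and lists were chosen with earlier results of these data known. Shared 50-base stretches were counted in GENCODE transcripts. Recovery of reads and the intervals were tested on simulated reads with counting error only and the same scale for both libraries. That test therefore cannot show how the intervals behave with spread between cultures or with unequal scaling. Alternatives were other pseudocounts, filters, scalings, fold thresholds and the addition of reads of copies.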

Additional observations from a re-analysis of the deposited data

How the results depend on the processing

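No paired analysis was possible because each group has 1 library. No import gene was at least 1.5-fold higher or 2-fold apart under any setting, and the count at least 1.5-fold lower was 0 except at a pseudocount of 0.1, where it was 1 (TOMM5). A step of 25% higher or 20% lower gave 3 and 7 genes. These counts, added after seeing the data, were 1 and 4 at a pseudocount of 5, and 5 and 3 with FPKM scaled to equal sums. With library totals of recovered reads, 4 were at least 20% lower. The median kept its sign except with FPKM scaled to equal sums, and ran from -0.14 at a mean FPKM of at least 5 to 0.02 there. The signs of TOMM34, TIMM8B and PMPCB were opposite under all 3 other scalings, and those of TOMM7 and TIMM8A with equal sums. With equal sums the interval lay below 1 for 12 and above 1 for 12 import genes, in place of 14 and 4. Shares of all measured genes were counted only with FPKM as deposited and a pseudocount of 1. None therefore stands beside the counts under the other settings. Counting error alone leaves differences of TOMM20L, TOMM5 and other genes with few reads imprecise.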
